A study of Homo sapiens with 8 samples.

Results

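Peaks of open chromatin around 7 genes for abundant small noncoding RNAs were followed through 8 fractions of 293T chromatin. The genes were RN7SK, RN7SL1, RN7SL2, RMRP, RPPH1, RNU4-1 and RNU4-2, taken as 6 windows because RNU4-1 and RNU4-2 share 1. Each window reached 3 kb to either side of a fixed hg19 position, and every peak that touched it was kept, whatever its height. This gave 51 of the 119972 peaks in the 8 lists, and 6 of the 36845 regions formed when peaks of different lists that overlapped were merged. The cells were 293T, a line of human embryonic kidney origin, and were fixed by crosslinking, made permeable and exposed to the ATAC-seq transposase, which cuts open DNA and leaves sequencing adapters in it. The treated material was then bound to Q Sepharose, an anion exchange resin. The groups are the unbound flow-through (FT) and the material released by NaCl at 20 mM (G20), 100 mM (G100), 200 mM (G200), 300 mM (G300), 500 mM (G500), 700 mM (G700) and 1000 mM (G1000), with 1 library in each. No group has a replicate, so the tests below compare libraries and not conditions, and all intervals cover counting error only.

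The peak names inside the G200 list read G50_200, so it is not settled that this library holds the 200 mM wash alone. The libraries also differed in depth and background. The background reads per kb recovered from the peak statistics ran from 0.817 in G200 to 2.36 in FT. Reads in the ordinary regions defined below were fewest in G700 (58858) and most in FT (125907), with 91809 in G200. The lists held from 8102 peaks (G700) to 22807 (FT). For this reason each peak was also ranked within its own list, as the percentage of the list's peaks with a lower −log10 q.

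These genes are transcribed at a high rate in nearly all cells, and most of their RNAs work as the scaffold or catalyst of a protein-RNA particle. RN7SK, RMRP and RPPH1 are read by RNA polymerase III from promoters that lie wholly upstream of the RNA: a TATA box, a proximal sequence element (PSE) bound by the SNAPc complex, and a distal element that often carries the octamer bound by OCT1. The U4 genes have a PSE and a distal element but no TATA box, and are read by RNA polymerase II. RN7SL1 and RN7SL2 are read by RNA polymerase III with the help of elements inside the transcribed part. Human genomes hold many copies and pseudogenes of these RNAs. RN7SL1 and RN7SL2 are nearly the same in sequence, as are RNU4-1 and RNU4-2, so reads within the RNA can be placed at another copy. How reads of several equal positions were treated is not given in the sources used here.

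The RefSeq promoter table (GRCh38.p14, 250 bases before each gene start) has no entry of its own for the 7 genes. RMRP, RPPH1 and RNU4-2 each lie next to the start of a protein-coding gene, CCDC107, PARP2 and SIRT4 respectively. The promoters of these neighbours are shown because they cover DNA between the 2 genes. The CCDC107 and SIRT4 stretches do not reach the RNA gene, so bases nearest to it may be missing. All are printed 5′ to 3′ on the plus strand of GRCh38.p14, at chr9:35658042-35658291 (CCDC107), chr14:20343385-20343634 (PARP2) and chr12:120291939-120292188 (SIRT4). The first 27 bases of the PARP2 stretch belong to the 5′ part of RPPH1. Capitals mark the octamer ATGCAAAT, the string TATAA (both searched on both strands), and the 17 bases that start with the single TCACC on the opposite strand, the strand from which RMRP, RPPH1 and RNU4-2 are read. TCACC is how known PSEs of such genes often begin.
CCDC107, beside RMRP: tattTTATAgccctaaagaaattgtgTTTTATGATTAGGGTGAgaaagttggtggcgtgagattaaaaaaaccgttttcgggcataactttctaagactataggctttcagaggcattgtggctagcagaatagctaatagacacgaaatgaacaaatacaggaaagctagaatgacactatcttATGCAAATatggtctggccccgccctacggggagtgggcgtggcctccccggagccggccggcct
PARP2, beside RPPH1: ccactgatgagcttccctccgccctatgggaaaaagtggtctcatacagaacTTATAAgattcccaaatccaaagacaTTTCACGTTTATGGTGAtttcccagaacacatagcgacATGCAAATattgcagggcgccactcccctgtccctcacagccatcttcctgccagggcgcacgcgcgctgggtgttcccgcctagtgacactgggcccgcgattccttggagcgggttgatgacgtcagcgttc
SIRT4, beside RNU4-2: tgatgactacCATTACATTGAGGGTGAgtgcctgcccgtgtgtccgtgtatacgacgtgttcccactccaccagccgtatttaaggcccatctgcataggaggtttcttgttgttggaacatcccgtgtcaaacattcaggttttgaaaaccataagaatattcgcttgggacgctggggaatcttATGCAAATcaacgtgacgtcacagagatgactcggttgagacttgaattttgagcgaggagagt

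The octamer occurs in each of these 3 stretches, against 573 of all 35116 promoters of the table (1.63%). The 17 bases, read on the opposite strand, are shown to compare the 3 genes.
RMRP side: TCACCCTAATCATAAAA
RPPH1 side: TCACCATAAACGTGAAA
RNU4-2 side: TCACCCTCAATGTAATG

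RMRP and RPPH1 share 13 of these 17 letters, which gives TCACCNTAANCNTNAAA, and CCDC107 and PARP2 are the 2 promoters in the table that hold that string on either strand (0.0057%). It was made from these 2 sequences, so its rarity is no test. The RNU4-2 stretch has 9 of the 13 letters. Both counts include the letters TCACC, which match by construction because each stretch was chosen to start with them. TCACC alone is in 39% of the promoters. In CCDC107 and PARP2 the order from the RNA gene outward is TATAA, the PSE-like string and the octamer. TATAA is found in 18.9% of the promoters and is absent from the SIRT4 stretch, which does not reach RNU4-2. In PARP2 the match to TATAA overlaps its own reverse complement. GSTA4, whose start lies near RN7SK, had no octamer, TATAA or PSE-like string in its 250 bases. RN7SK lies outside that stretch, so its promoter may not be covered and the absence is no result about it. Such matches describe letters and show no binding.

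All 6 windows held a peak in all 8 libraries, from the flow-through to 1000 mM NaCl. Of all merged regions, 11.5% were called in every list. That share is over regions and not over windows, and the members were chosen with earlier results of these data known. The comparison is therefore no test. Of the 51 peaks, each was wider than the median peak of its list, 46 had a fold enrichment (the authors' ratio of reads at the summit to the local background) above the list's median, and 38 ranked in the top 10% of their list by −log10 q. The merged regions were wider than the median, 938.5 bp, of the 4220 regions called in all 8 lists whose reads could be recovered (the shared regions), from 951 bp at RN7SL1, close to that median, to 2402 bp at the U4 genes. The shared regions rank high themselves, with a median of 77.7 for the mean rank over the 8 lists. The mean rank of RMRP was above that of 66.4% of them, and for RN7SK it was 75.1%. It was 87.0% for RN7SL2, 91.8% for RN7SL1, 92.1% for the U4 genes and 94.4% for RPPH1. The window of RN7SL1 had a peak over the fixed position itself in 8 lists, as did those of RN7SK and RPPH1. For RN7SL2 and RMRP it was 7 lists and for the U4 genes, whose position lies between the copies, 6.

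**Figure D1:**
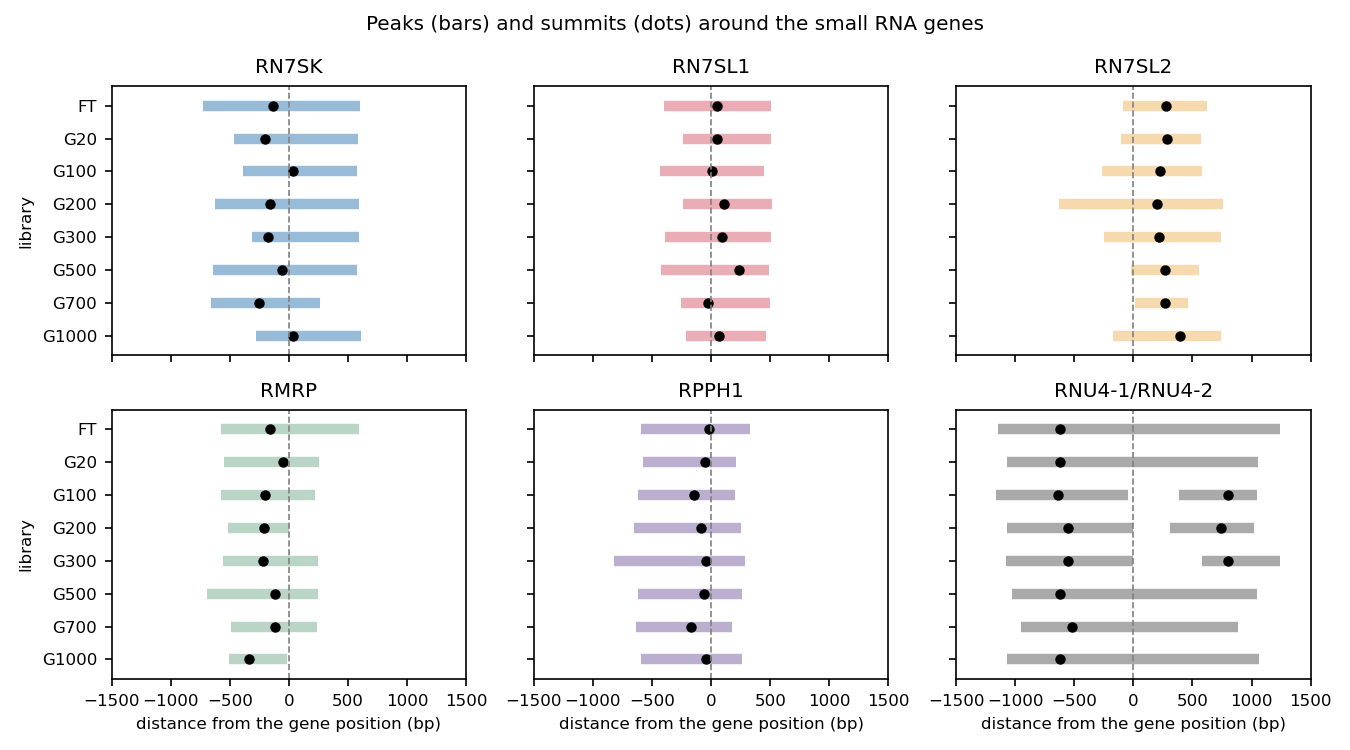
Peaks as bars and summits as dots for each library (rows), plotted as distance in bp from the fixed gene position (dashed line) toward higher coordinates on the right. Every library has a bar in every panel, and the U4 panel splits into 2 bars in G100, G200 and G300.

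RN7SK makes 7SK RNA, the scaffold of the particle that holds the elongation factor P-TEFb inactive. Over its peak summit the number of recovered reads was 46 (FT), 30 (G20), 26 (G100), 27 (G200), 43 (G300), 19 (G500), 16 (G700) and 25 (G1000). The highest numbers came from FT and G300, which are among the deeper libraries, and the lowest from G700. The region lies on chromosome 6 from 52859694 to 52861032 in hg19. The −log10 q given by the authors was lowest in G700 (7.51) and highest in G300 (25.9), and the rank within the list went from 73.5 in G700 to 97.2 in FT. To compare libraries, ordinary regions were taken, meaning shared regions away from the longest peak-free stretch of a placed chromosome and from its ends. Each number of reads was divided by its expected number, with the region's total of 232 split over the libraries as in 4098 such regions. These ratios lay between 0.808 in G20 (95% Poisson interval 0.545 to 1.15) and 1.16 in FT (0.849 to 1.55). All 8 intervals included 1, so no fraction was separable from the others at this depth. The summit lay at lower coordinates than the position in 6 lists, and between 251 bp below it (G700) and 35 bp above it (G1000) over all 8.

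RN7SL1 and RN7SL2 encode 7SL RNA, the core of the signal recognition particle that brings nascent secretory proteins to the endoplasmic reticulum. At RN7SL1 (chromosome 14 from 50052864 to 50053814) the reads were 41 (FT), 52 (G20), 38 (G100), 37 (G200), 46 (G300), 26 (G500), 26 (G700) and 28 (G1000). At RN7SL2 (chromosome 14 from 50328642 to 50330027) they were 39 (FT), 43 (G20), 28 (G100), 30 (G200), 39 (G300), 22 (G500), 23 (G700) and 27 (G1000). RN7SL1 was above RN7SL2 in each library, both were highest in G20, and both were lowest in G500, for RN7SL1 together with G700. Over the 8 libraries RN7SL1 had 294 reads (95% Poisson interval 261 to 330) and RN7SL2 had 251 (221 to 284), and these intervals overlap.

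Scaled to the ordinary regions, the 7SL pair had the smallest spread of the members, an order that was not kept when libraries were scaled to their recovered background (a log2 standard deviation of 0.32 for RN7SL2 and 0.39 for RN7SL1, beside 0.26 for the U4 genes). RN7SL2 ranged from 0.909 of the expected reads in FT (0.646 to 1.24) to 1.15 in G700 (0.727 to 1.72). RN7SL1 ranged from 0.816 in FT (0.586 to 1.11) to 1.17 in G100 (0.826 to 1.60). With ordinary regions, the standard deviation of the log2 ratio over the 8 libraries was 0.13 for RN7SL2, and 1.38% of the 652 shared regions with a like number of reads (within 0.25 on the log2 scale) had a smaller one. For RN7SL1 it was 0.17, with 8.61% of 418 such regions below it. These spreads were not set against counting error, and all intervals of both genes included 1. Of the 15 pairs of members, RN7SL1 and RN7SL2 had the smallest root mean square difference between their log2 ratios, 0.12. Their small spreads by themselves keep this difference small. Other shared regions were closer to each, the nearest at 0.086 from RN7SL1 and 0.077 from RN7SL2. The part that exchange of reads between the 2 near-identical genes has in the likeness of the pair was not tested. Their ranks stayed high as well, between 92.8 and 98.0 for RN7SL1 and between 90.5 and 96.4 for RN7SL2. The summits of RN7SL2 lay 198 to 393 bp above the fixed position in every list. Those of RN7SL1 lay between 27 bp below and 233 bp above it.

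RMRP makes the RNA of RNase MRP, which cuts the precursor of ribosomal RNA, and was the member with the fewest reads. They numbered 34 (FT), 25 (G20), 32 (G100), 31 (G200), 25 (G300), 18 (G500), 13 (G700) and 19 (G1000). The reads of G100 and G200 stood near those of FT, although the background of these libraries was less deep. This was not particular to RMRP: RN7SL1 had 38 (G100), 37 (G200) and 41 (FT), and RPPH1 had 49 (G200) and 46 (FT). At RMRP, G100 had 1.47 times the expected number (1.00 to 2.07), an interval that excludes 1 by a small margin. G200 had 1.26 times (0.858 to 1.79). The lowest ratio was 0.773 in G300, with an interval that included 1. In the exact binomial test of G100 against the other 7 libraries the p was 0.0299 (two-sided), and 0.790 after Benjamini-Hochberg adjustment over all 33760 pairs of region and library. The G100 value therefore did not pass.

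The rank of RMRP within the lists varied most among the members, from 55.3 in G700 to 96.9 in G100. In G700 the peak had a −log10 q of 5.48 and a fold enrichment of 5.63, above 45.7% of the folds in that list. Its 13 reads there were 0.826 of the expected number, with an interval from 0.440 to 1.41, so the low rank was not separable from counting error. The region spans chromosome 9 from 35657321 to 35658607. The summit was at lower coordinates than the fixed position in all 8 lists, by 48 bp (G20) to 339 bp (G1000), and RefSeq places CCDC107 on the other, higher side.

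RPPH1 makes H1 RNA, the catalytic RNA of RNase P, which removes the leaders of tRNA precursors. Its region, on chromosome 14 from 20810751 to 20811898, had the highest mean rank of the 6, 97.1, above 94.4% of the shared regions. The reads were 46 (FT), 61 (G20), 32 (G100), 49 (G200), 55 (G300), 28 (G500), 25 (G700) and 34 (G1000). G20 held the most reads and also the highest −log10 q, 44.5, with a fold enrichment of 12.3. Relative to expectation G20 had 1.16 times (0.884 to 1.48), G200 had 1.19 times (0.881 to 1.58) and FT 0.816 times (0.597 to 1.09). None of the 8 intervals excluded 1. Scaled to the libraries' background instead, RPPH1 was called in G200 (1.92, adjusted p = 0.000887) and in FT (0.624, adjusted p = 0.00657, exact binomial test), where 31.4% of all shared regions were called in some library. The summits, all at lower coordinates than the fixed position, stayed within 155 bp of each other. Among the 4080 shared regions with 1 peak in each list the median range was 228 bp, and 22.8% had a smaller one. RPPH1 summits lay 15 bp (FT) to 170 bp (G700) from the position, on the side away from PARP2. The 8 RPPH1 peaks had 754 bp in common, beside a median of 346 bp for those regions. RPPH1 also had more reads than 93.9% of the shared regions and was wider than 78.5%. No comparison of summits or common stretch with regions of like reads or width was made.

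RNU4-1 and RNU4-2 encode U4 small nuclear RNA, which keeps U6 RNA paired and inactive until the spliceosome is activated. Their joint region, on chromosome 12 from 120728839 to 120731240, had the most reads of the 6 (433, 95% Poisson interval 393 to 476). It was wider than 99.8% of the shared regions. At the higher summit the reads were 67 (FT), 66 (G20), 50 (G100), 34 (G200), 77 (G300), 52 (G500), 39 (G700) and 48 (G1000). G200 was the lowest, below G700 and G500, although elsewhere among the members G200 was above both. In 5 lists a single peak reached to both sides of the fixed position, from 1832 bp (G700) to 2383 bp (FT) wide. In G100, G200 and G300 the list held 2 peaks with a gap of 433, 311 and 585 bp. In every list the peak or the left peak had its summit 515 to 641 bp below the fixed position, and RefSeq lists RNU4-2 as the copy at lower coordinates.

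The G200 value at the U4 genes was 0.630 of the expected reads (95% Poisson interval 0.436 to 0.880). Against the other 7 libraries the exact binomial p was 0.00277 (two-sided), the smallest of all members, and 0.252 after adjustment over all region-library pairs, so it did not pass. Its direction was not kept when libraries were scaled to their background, which gave 1.02. G200 also had the largest share of shared regions with an interval below 1, 5.02%, against 0.616% (G100) to 3.10% (FT) for the other libraries. Intervals above 1 were found at 4.31% of the shared regions in G200 and 4.81% in FT, and at 1.14% (G300) to 1.56% (G100) in the rest. Where both peaks were listed, the left summit had 50 reads and the right 28 in G100, 77 and 48 in G300, and 33 and 34 in G200. The left-to-right ratio was 1.79 in G100 (95% exact binomial interval 1.10 to 2.95), 1.60 in G300 (1.10 to 2.35) and 0.971 in G200 (0.583 to 1.62). These intervals overlap. G500 had 1.28 times the expected reads (0.954 to 1.68).

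The fold enrichment of the strongest U4 peak was above 39.8% of the list in G200 (5.31), 57.6% in FT (5.66), 70.8% to 76.9% in G20, G100, G300, G700 and G1000, and 87.6% in G500 (8.15). The local background implied by the fold was 11.0 reads in FT at the U4 genes, against 4.81 at RPPH1, 4.73 at RN7SK and 3.51 at RMRP in the same library. The weaker right-hand peak of G100 had a fold of 3.82, above 4.85% of that list, and a rank of 61.1.

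**Figure D2:**
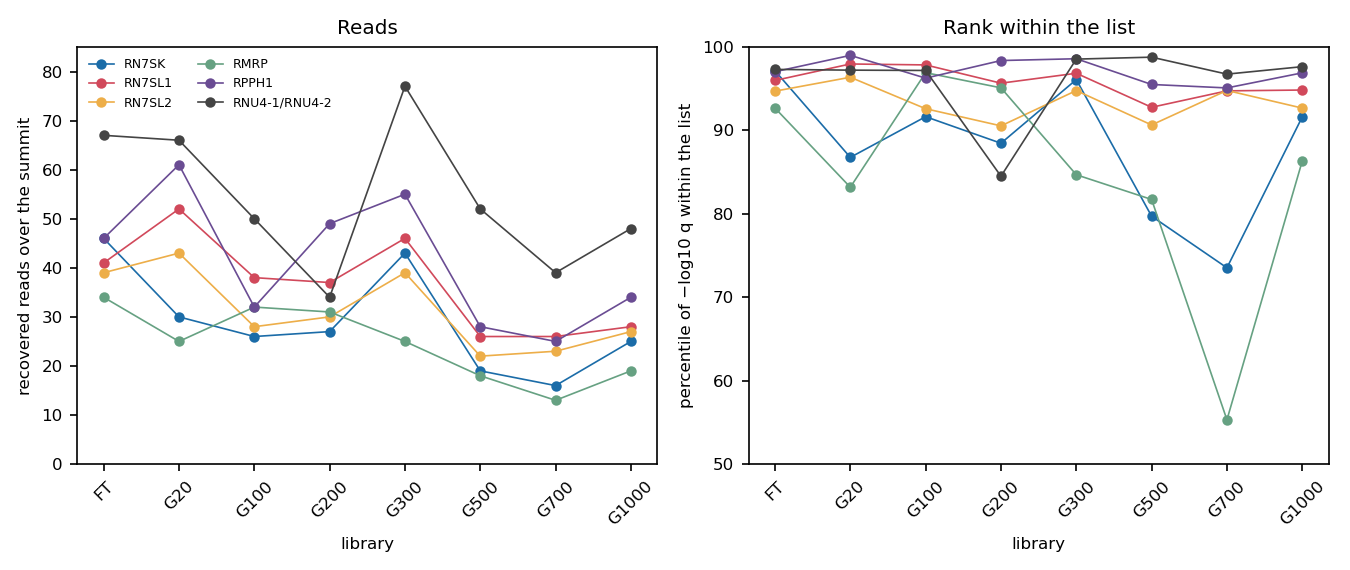
Left, recovered reads over the highest summit of each gene region in each library. Right, the rank of its strongest peak by −log10 q as a percentile of the list (axis from 50 to 100). Lines only join the points of 1 region. The U4 region is highest in 7 libraries on the left but falls to 34 reads in G200, and RMRP reaches its lowest rank, 55.3, in G700.

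With ordinary-region scaling and the highest peak of each region, no library passed the test at any member. In 48 pairs of member and library, 0 passed the exact binomial test after adjustment, against 0.578% of all region-library pairs. At an unadjusted p under 0.05 there were 2 of 48 member pairs, the U4 genes in G200 and RMRP in G100, beside 5.55% of all pairs. The same 2 pairs were those whose 95% Poisson interval excluded 1, beside 3.9% of all pairs. The median ratio of the 6 regions was 0.907 (FT), 1.01 (G20), 1.03 (G100), 0.984 (G200), 0.984 (G300), 0.937 (G500), 1.03 (G700) and 1.10 (G1000). With background scaling it was 0.694 in FT and 1.59 in G200, and the median over all 4220 shared regions moved with it, from 1.01 to 0.769 in FT (a log2 shift of -0.39) and from 0.961 to 1.55 in G200 (0.69). Under that scaling 4 of the 6 members were called in some library, beside 31.4% of all shared regions. With the reads of all peaks of a region summed, 1 member was called, beside 2.87%. With ordinary regions, in FT 2 of the 6 ratios were above 1, and in G1000 it was 5 of the 6. The ranges overlapped: the lowest ratio in G1000 was 0.995 (RN7SL1) and the highest in FT was 1.16 (RN7SK).

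**Figure D3:**
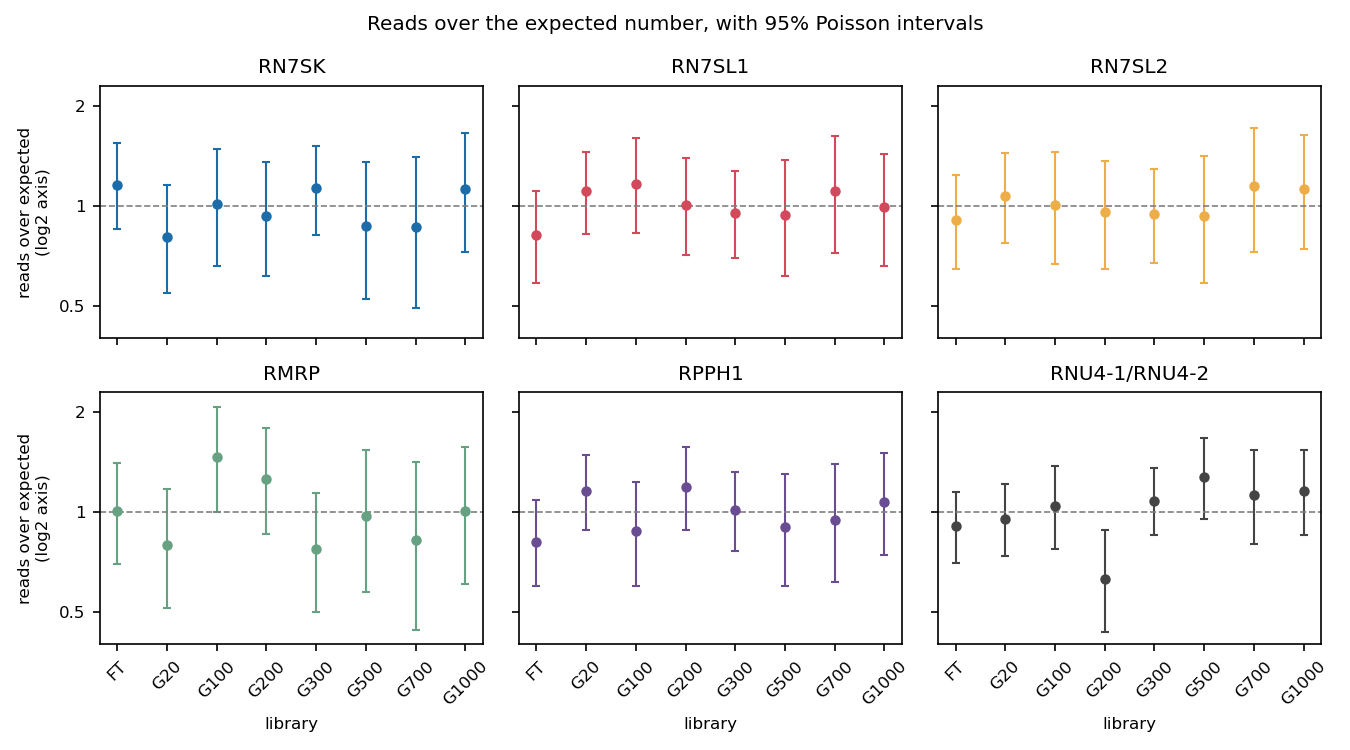
Reads over the expected number in each library (log2 axis) with 95% Poisson intervals, 1 panel per gene region; the dashed line marks 1. Intervals that miss the line are those of RMRP in G100 and of the U4 genes in G200.

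Summed reads of the low side (unbound FT, G20 and G100) were also compared with those of the high side (G500, G700 and G1000). Of the 6 regions 0 passed the exact binomial test adjusted over 4220 regions, beside 0.332% of all regions, and 0 had an unadjusted p under 0.05, beside 4.93%. RN7SL1 had 131 low-side and 80 high-side reads, a scaled ratio of 1.00 (95% exact binomial interval 0.751 to 1.34). RMRP had the highest low-over-high ratio, 1.11 (0.779 to 1.60), and the U4 genes the lowest, 0.804 (0.641 to 1.01, exact binomial p = 0.0579, adjusted p = 0.978). The ratio was 1.04 for RN7SK (0.747 to 1.45), 0.933 for RN7SL2 (0.687 to 1.27) and 0.976 for RPPH1 (0.741 to 1.29). Differences within these intervals were not detectable at this depth, so the values do not show that the sides were alike.

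The 6 regions also differed in how many reads they held. Their totals were, in order, 433 for the U4 genes, 330 for RPPH1, 294 for RN7SL1, 251 for RN7SL2, 232 for RN7SK and 197 for RMRP, beside a median of 160 for the shared regions. The Poisson interval of the U4 genes lay above that of RPPH1 (295 to 368), while each of the other neighbours in this order had overlapping intervals. With ordinary-region scaling, 4 had a small spread over the fractions for their reads: RN7SL2 and RN7SL1, as given above, RN7SK with 0.20 (15.9% of like regions lower) and RPPH1 with 0.20 (16.2% lower). RMRP, with 0.33 (62.2% lower), and the U4 genes, with 0.31 (65.1% lower), were close to the middle of regions like them. No interval of the first 4 excluded 1. For RMRP (G100) and the U4 genes (G200) 1 interval each did, and neither passed the adjusted test. The spreads were not set against counting error, so the grouping is a description only. This grouping was not kept with background scaling, where the spread was 0.26 for the U4 genes (11.3% of like regions lower), 0.30 for RN7SK (13.6%), 0.32 for RN7SL2 (18.9%), 0.39 for RN7SL1 (38.3%), 0.46 for RPPH1 (61.6%) and 0.53 for RMRP (81.5%). RN7SK and RN7SL2 were below the median spread of like regions under both scalings, as was RN7SL1. With ordinary-region scaling, RMRP and the U4 genes were also the least alike of the 15 pairs, with a root mean square difference of 0.50 on the log2 scale. Under that scaling both had the largest spreads of the members, which by itself makes a large difference more likely.

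**Figure D4:**
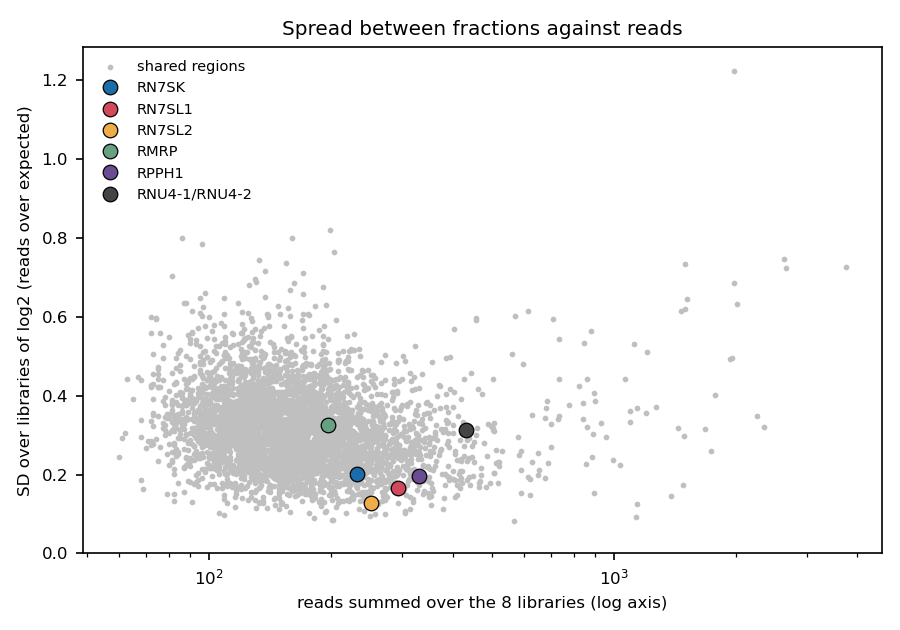
Standard deviation over the 8 libraries of the log2 reads over expected, scaled to ordinary regions, against reads summed over the libraries (log axis). Grey points are the 4220 shared regions and large points the 6 gene regions. RN7SL2 (0.13), RN7SL1 (0.17), RN7SK (0.20) and RPPH1 (0.20) lie low in the cloud at their read number, and RMRP and the U4 genes within it; with background scaling the order differs and the U4 genes are lowest (0.26).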

How the data were processed

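ATAC-seq peaks of 8 libraries were analysed, 1 for each fraction. Per the submitters' processing notes, the tools were Bowtie2 2.2.6, HOMER and, for peaks, MACS2 2.2.1, with the builds hg19 and mm10 listed. Positions here are hg19. The settings of the peak caller are not stated in the sources used here. For each peak the deposited lists give a score, a fold (ratio) over background, and the −log10 of p and of q, and each library has a list of its own. No read counts come with the lists. MACS2's fold is (reads + 1) over (background + 1) and its p is a Poisson tail, so both were solved for a whole number of reads over the summit, within 0.001 of the listed −log10 p; a single solution was found for 99.3% (G500) to 100% (G300) of the peaks. For paired reads these may be fragments. Peaks sharing at least 1 bp were merged over the lists, and a region's reads in a library are those of its highest peak.

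Ordinary regions, which set the expected shares, lie over 1 Mb from the longest peak-free stretch of a placed chromosome and over 20 kb from its ends. The upper end was taken as the end of the last peak. Tests were exact binomial tests (two-sided) with Benjamini-Hochberg adjustment over all shared regions, at a threshold of 0.05, run with scipy 1.17.1 and tested on simulated data. Intervals are 95% exact Poisson or Clopper-Pearson. All 7 members were named, with all their lists. The members, lists and motifs were chosen with earlier results of these data known. A planned count over related genes (other small RNA genes and the proteins of these particles) was not made, since no hg19 annotation was used here. RefSeq tables (GRCh38.p14) gave names, neighbours and promoter sequences only.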

Additional observations from a re-analysis of the deposited data

How the results depend on the processing

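All 6 windows kept a peak in all 8 lists with windows of 1 kb or 500 bp either side, with a −log10 q of at least 5, at equal list length, and with summits required in the window. With regions merged by summits within 200 bp, 8.76% of regions were called in all lists. Scaled to each library's recovered background instead of ordinary regions, 4 of the 6 members were called in some library, beside 31.4% of all shared regions (exact binomial test, adjusted): RPPH1 in FT (0.624) and G200 (1.92), RN7SL1 in FT (0.624), RMRP in G200 (2.04) and the U4 genes in FT (0.693). The pairs whose interval excluded 1 then rose from 2 to 9, and the U4 ratio in G200 was 1.02 (adjusted p = 1, exact binomial test). With the reads of all peaks of a region summed, 1 member was called, the U4 genes in G300 (1.41), beside 2.87% of regions; lists that split this region contribute 2 peaks by construction, and G200 was then at 0.992. Without G200 or without FT, 0 members were called, with an unadjusted p under 0.05 in 1 and 2 of 42 pairs (exact binomial test). For the low against the high side 0 members were called with background scaling, without FT or without G100 (unadjusted p under 0.05 in 1, 0 and 1 of 6, exact binomial test), and uncalled ratios crossed 1 for RN7SK (0.976 with background scaling, 0.930 without FT), RN7SL1 (1.12 without FT), RPPH1 (1.06 without FT, 1.00 without G100) and RMRP (0.962 without G100). No paired analysis was possible because each fraction has 1 library. Members held 13 to 77 reads per library, which limits what could be separated.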

Other observations

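Of the 12 regions flanking the members, 10 were called in fewer than 8 lists (83.3%), near the share of all merged regions (88.5%). RN7SK was the most isolated, with the next region 65353 bp away at higher coordinates (called in 2 lists) and 112296 bp away at lower coordinates (6 lists), against a median distance to the nearest region of 16745 bp among the shared regions. The other 5 members lay nearer to a neighbour than that median, at 4624 to 8938 bp, and 11.5% to 28.5% of the shared regions had a nearer one. RN7SL2 had the closest neighbour, 4624 bp away at chromosome 14 from 50334652 to 50335633, called in all 8 lists, and another 7833 bp away on the lower side, called in 5 lists. RPPH1 had neighbours 8938 bp away at lower coordinates (6 lists) and 69018 bp away at higher coordinates (8 lists).

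For each member, the 3 shared regions with the most similar ratios over the 8 libraries were taken. Their root mean square differences from the member, on the log2 scale, were 0.08 to 0.15, and the libraries they share make these likenesses descriptions only. The nearest matches in ratio were chromosome 1 from 222884843 to 222886906 for RN7SK, chromosome 14 from 58710942 to 58711985 for RN7SL1, chromosome 5 from 145561741 to 145562710 for RN7SL2, chromosome 3 from 101292501 to 101293486 for RMRP, chromosome 10 from 12110390 to 12111393 for RPPH1 and chromosome X from 115085014 to 115085678 for the U4 genes.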
